A study of Mus musculus with 3 samples.

Results

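The genes described here were 10 immediate early genes of the AP-1, Egr and Myc families and their companions, namely Jun, Junb, Jund, Fos, Fosl2, Egr1, Ier2, Ier5, Myc and Atf3. They were chosen by name, and a predicted m6A site was counted for a gene when it lay inside the gene's span on the same strand. In this way 65 of the 19301 listed sites were found, and they fell in 7 of the 10 genes. Jun held 16 sites, Ier5 13, Ier2 10, Fosl2 8, Atf3 8, Junb 6 and Fos 4. No site was listed for Jund, Egr1 or Myc.

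The sites come from miCLIP2 on poly(A)+ RNA of RAW264.7 cells, a mouse macrophage line that was left untreated. The authors called peaks in 3 replicates and pooled them into a single list in which each A carries a prediction score of the machine learning model m6Aboost. The list holds no read counts, no values per replicate and no second condition, so neither the reads behind a site nor their spread over the replicates is known, and nothing could be compared between samples. The score states how sure the model was of a site and is not a methylation level.

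Immediate early genes are switched on within minutes of a growth factor, stress or microbial signal without the need for new protein synthesis, and their mRNAs are short-lived. Jun, Junb and Jund pair with Fos and Fosl2 through leucine zippers to form AP-1, a transcription factor that macrophages use when they are activated. Atf3 belongs to the same zipper class and restrains inflammatory genes, Egr1 is a zinc finger activator, Myc drives growth genes, and Ier2 and Ier5 encode related proteins of the immediate early response family. m6A is placed cotranscriptionally by the METTL3 methyltransferase complex, mostly at DRACH motifs (D is A, G or T, R is A or G, H is A, C or T) in long exons and around stop codons, and it is best known for shortening mRNA half-life.

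The highest-scoring site of each gene is shown first. Each of these lies at a DRACH motif, as did 59 of the 65 sites, but their pentamers differ. Each run is 21 nt of the transcript strand in GRCm38, 5′ to 3′, and the capitals mark the pentamer centred on the listed A.
Jun, chr4:95049983-95050003, minus strand: agaacgatGGACTtttcgtta
Ier5, chr1:155098164-155098184, minus strand: ggggcttgAGACTttgggggt
Ier2, chr8:84661955-84661975, minus strand: caggggaaGGACTgaggagcg
Atf3, chr1:191170691-191170711, minus strand: ttggctacAAACTgttacaac
Fos, chr12:85476604-85476624, plus strand: ggcctcaaGGACTtgcaagca
Junb, chr8:84978099-84978119, minus strand: cgcctccgGGACAgtactttt
Fosl2, chr5:32153885-32153905, plus strand: tgcgccaaGGACCtttcctcc

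These sites scored 0.958 in Jun, 0.955 in Ier5, 0.95 in Ier2, 0.935 in Atf3, 0.899 in Fos, 0.841 in Junb and 0.789 in Fosl2. The top sites of Jun, Ier5 and Ier2 ranked 241, 284 and 353 among the 19301 listed sites. All but the Junb site, which lay in the coding sequence (CDS), were in the 3′ UTR.

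Several neighbouring sites lay within 10 nt of each other. These groups are shown as runs of 30 nt with the pentamer of every listed A in capitals.
Jun, chr4:95050247-95050276, minus strand, 2 sites: aacgttttgaGAACAGACTgtcagggctga
Jun, chr4:95050196-95050225, minus strand, 3 sites: taacagAGACAAACTtgaGAACTtgactgg
Junb, chr8:84978092-84978121, minus strand, 2 sites: cacgcctccgGGACAGTACTtttacccccg
Ier5, chr1:155098405-155098434, minus strand, 2 sites: gccgcgaGGACGagccgAGACCgtaggcgc
Atf3, chr1:191170825-191170854, minus strand, 2 sites: tgtgtggccacaTGAACTggctggcaccag

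The first Jun run begins in the last codons and the stop codon, the tga just before the capitals, so that its pentamers open the 3′ UTR. In Atf3 the 2 listed A lay 1 nt apart, with a score of 0.907 for the A of GAACT and 0.608 for the A before it. Whether neighbouring calls of this kind are separate methylated A or 1 site read at neighbouring positions was not tested.

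For the members without a site, the windows of interest are the copies of GGACT, the most frequent pentamer of the list, that lay within 200 nt of the stop codon. Neither Jund nor Myc had any of them listed. Egr1 had no listed site either, but its windows are not shown here. The capitals mark the pentamer.
Jund, chr8:70700099-70700119, plus strand: gcatgcgcGGACTagctgcgg
Jund, chr8:70700126-70700146, plus strand: ggcgccccGGACTctttcgag
Jund, chr8:70700152-70700172, plus strand: gtgcccccGGACTcgacaagc
Myc, chr15:61989831-61989851, plus strand: tctgaaaaGGACTtattgagg
Myc, chr15:61990032-61990052, plus strand: gggctttgGGACTgtaagctt

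The Jund copies lay 26, 53 and 79 nt past the stop codon, and the Myc copies 67 nt before and 134 nt after it.

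Set against the background, 5080 of 21951 annotated protein-coding genes had at least 1 listed site, or 23.1%. The median number of sites was 3 in these genes (quartiles 1 and 5). Having 10 or more sites was the case in 7.38% of genes with a site, and in Jun, Ier2 and Ier5 here. All 65 sites lay in exons of the transcript with the longest CDS, and none of them in the span of a second gene on the strand.

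**Figure D1:**
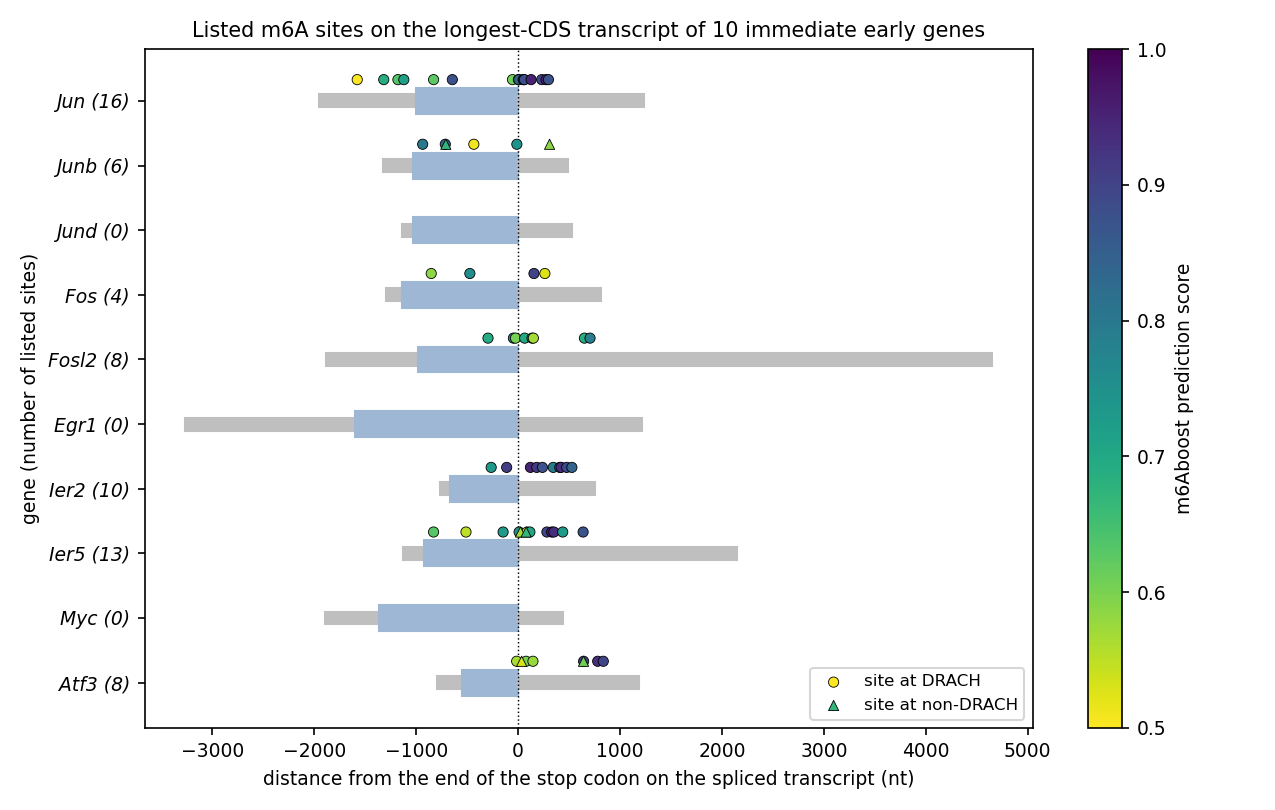
Positions of the 65 listed sites on the spliced longest-CDS transcripts of the 10 genes, in nt from the end of the stop codon (0, dotted line); grey bars are UTRs, blue bars the CDS, circles sites at DRACH, triangles sites at other motifs, and colour gives the m6Aboost score. Of the 10 sites that score at least 0.9, 9 sit in the 3′ UTR of Jun, Ier2, Ier5 and Atf3 and 1 in the CDS of Ier2, while Jund, Egr1 and Myc carry no point.

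Jun encodes the c-Jun subunit of AP-1 and is an intronless gene at chr4:95049034-95052222 on the minus strand. Its single exon of 3189 nt has a 5′ UTR of 951 nt, a CDS of 1005 nt and a 3′ UTR of 1233 nt. The 16 sites were split into 4 of the 5′ UTR, 3 of the CDS and 9 of the 3′ UTR, and all 16 were at DRACH. As many or more sites were found in 77 of the 5080 genes. Per length, Jun had 5.02 sites per kb of spliced transcript, at percentile 98.9 of genes with a site, whose median was 0.88.

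Sites in the 5′ UTR were found in Jun and in no other member. They lay at -1578, -1318, -1179 and -1121 nt from the end of the stop codon and scored 0.501, 0.688, 0.633 and 0.720. These 4 scores were all below the median of the whole list (0.734). The CDS sites lay in codons 59, 120 and 317 and scored 0.626, 0.877 and 0.607, so that the middle one stood apart. In the 3′ UTR the scores were 0.725, 0.842, 0.686, 0.843 and 0.881 for the sites 3, 7, 50, 54 and 62 nt past the stop codon. Further on, they were 0.953, 0.892, 0.958 and 0.874 for the sites at 128, 232, 274 and 298 nt. No site was listed in the remaining 3′ UTR, so that the 9 sites fell in its first 24.2%.

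The first 5 sites of the 3′ UTR lay within 62 nt, and no other member had as many sites in a window of 100 nt. Of the 13 DRACH A within 200 nt of the Jun stop codon, 7 were listed, or 53.8% (95% Wilson interval 29.1 to 76.8%). Over its whole transcript 16 of 72 DRACH A were listed, 22.2% (14.2 to 33.1%). These intervals, here and below, cover counting error only, and sites of 1 transcript are not replicates.

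Junb, which encodes a Jun relative with weaker activation, had another arrangement. It lies at chr8:84974484-84978718 on the minus strand, and its chosen transcript is a single exon of 1809 nt. Of its 6 sites, 5 were in the CDS, and a single one was in the 3′ UTR. The CDS sites scored 0.799, 0.841, 0.673, 0.511 and 0.742 in the order of the transcript, in codons 33, 107, 109, 201 and 341, and the last one lay 12 nt before the end of the stop codon. The site in the 3′ UTR, 309 nt past the stop codon, scored 0.586. Both the site in codon 109 and the one in the 3′ UTR lay at GTACT, which is no DRACH motif. Junb thus had 4 of its 30 DRACH A listed, 13.3% (5.31 to 29.7%), and 3.32 sites per kb.

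Jund encodes the Jun family member that most cells express without stimulation. It lies at chr8:70698949-70700616 on the plus strand, and its single exon of 1668 nt offered 20 DRACH A, of which none were listed. This was the lowest number of DRACH A among the 10 genes, and at 12 per kb also the lowest density, against 22.6 per kb in Jun and 16.6 per kb in Junb. The GC content of the transcript was 67.1%, the highest of the 10, against 55.5% in Jun and 62.6% in Junb. The nearest listed site on its strand was 77904 nt away from the gene. The part of GC content and of the number of motifs in the missing sites was not tested.

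Fos, the classical partner of Jun, lies at chr12:85473890-85477273 on the plus strand and has 4 exons that join to 2108 nt. Its 4 sites scored 0.585 in codon 97, 0.757 in codon 224, 0.899 at 156 nt past the stop codon and 0.526 at 263 nt. The first site lay in exon 2 and the others in the last exon. Fos was the only member with introns that had a site outside its last exon, and it had no 2 sites within 100 nt of each other. Of its 41 DRACH A, 4 were listed, 9.76% (3.86 to 22.5%), which gave 1.9 sites per kb.

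Fosl2, which encodes the Fos relative Fra-2, lies at chr5:32135801-32157842 on the plus strand. It has the longest spliced transcript of the 10 genes (6537 nt), most of it a 3′ UTR of 4653 nt. The 3 CDS sites, in codons 229, 312 and 319, scored 0.691, 0.781 and 0.602. Those in the 3′ UTR scored 0.698, 0.735, 0.567, 0.687 and 0.789 at 65, 137, 150, 651 and 706 nt past the stop codon. All 8 sites were in the last exon, and the 3′ UTR sites fell in its first 15.2%. Fosl2 had both the lowest top score and the lowest density of the 7 genes, 1.22 sites per kb, at percentile 62.7. Near the stop codon, however, 5 of its 11 DRACH A were listed, 45.5% (21.3 to 72.0%), against 8 of 115, or 6.96% (3.57 to 13.1%), in the whole transcript.

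Ier2 had the highest median score and the highest density of the 7 genes. It is an intronless gene at chr8:84661331-84662852 on the minus strand with a transcript of 1522 nt, and its 6.57 sites per kb put it at percentile 99.7 of genes with a site. Its scores ran from 0.731 to 0.95 with a median of 0.882, so that its lowest site was close to the median of the whole list. The CDS sites scored 0.731 in codon 134 and 0.910 in codon 185. In the 3′ UTR the scores were 0.95, 0.918, 0.875 and 0.795 at 121, 183, 239 and 345 nt past the stop codon, and 0.813, 0.937, 0.890 and 0.840 at 409, 422, 477 and 528 nt. This 3′ UTR has 755 nt, and the gaps between its sites were 13 to 106 nt. Of its 26 DRACH A, 10 were listed, 38.5% (22.4 to 57.5%), and these included all 5 GGACT and all 3 GAACT of the transcript.

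Ier5, another intronless gene (chr1:155096361-155099636, minus strand, 3276 nt), had 3 CDS sites with scores of 0.631, 0.550 and 0.731 in codons 33, 139 and 260. Its 3′ UTR held 10 sites. The 5 nearest to the stop codon, at 10 to 116 nt past it, scored 0.757, 0.567, 0.667, 0.505 and 0.707. The 5 farther ones, at 283 to 638 nt, scored 0.895, 0.955, 0.937, 0.726 and 0.873. All but 1 of the farther sites scored above each of the nearer ones. Both sites of Ier5 that were not at DRACH, at GGAGC and GGACG, were among the nearer ones. Ier5 had 3.97 sites per kb, and 11 of its 62 DRACH A were listed, 17.7% (10.2 to 29.0%).

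Atf3 lies at chr1:191170296-191218039 on the minus strand, with 4 exons that join to 1984 nt, and all 8 sites were in the last exon. Here too the sites farther from the stop codon scored higher. Those from 14 nt before to 146 nt after the end of the stop codon scored 0.565, 0.530, 0.602 and 0.578. The sites from 642 to 836 nt scored 0.608, 0.907, 0.935 and 0.899. The lowest of these was the A next to GAACT shown above. With 4.03 sites per kb, Atf3 was at percentile 97.4 of genes with a site, level with Ier5, and 6 of its 38 DRACH A were listed, 15.8% (7.44 to 30.4%).

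Egr1 and Myc, like Jund, had no site. The Egr1 transcript of 4484 nt offered 74 DRACH A and 5 GGACT, more DRACH A than that of Jun. The Myc transcript of 2338 nt (3 exons, chr15:61985391-61990374, plus strand) offered 54 DRACH A and 6 GGACT, 4 of these in the CDS. Myc had the highest density of DRACH A of the 10 genes, 23.1 per kb, and 18 of them lay within 200 nt of its stop codon, where Jun had 13. The nearest listed sites on the strand were 21278 nt away from Egr1 and 1160723 nt away from Myc. Altogether 148 DRACH A and 15 GGACT of the 3 genes without a site were not listed. The list does not show whether these transcripts were present in the cells in amounts that allowed a peak, so an unmethylated and a scarce transcript cannot be told apart.

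**Figure D2:**
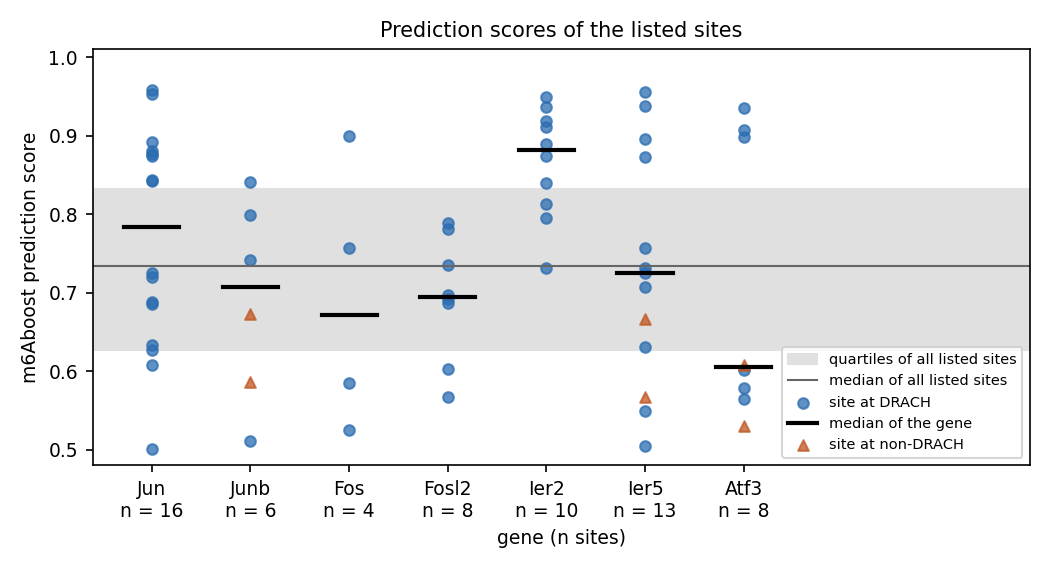
m6Aboost prediction score (y axis, no unit) of each listed site in the 7 genes with a site (x axis); circles are sites at DRACH, triangles other motifs, black bars gene medians, and the line and grey band the median and quartiles of all 19301 sites. Ier2 has the highest median, 0.882, while Atf3 splits into 3 sites between 0.899 and 0.935 and 5 between 0.530 and 0.608.

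Over the 7 genes together, the median score was close to that of the whole list. The median of the 65 sites was 0.735 with quartiles of 0.626 and 0.877, against 0.734 with quartiles of 0.627 and 0.832 over all 19301. A score of at least 0.9 was reached by 10 sites, 15.4% (8.58 to 26.1%), against 8.77% of the list. These 10 were in Ier2 (4), Jun (2), Ier5 (2) and Atf3 (2). By region, the median was 0.827 for the 42 sites in the 3′ UTR, 0.691 for the 19 in the CDS and 0.660 for the 4 in the 5′ UTR. The same order held in the whole list, with 0.787, 0.70 and 0.620. Since the transcript region is an input of m6Aboost, this order depends in part on the model.

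The members had more of their sites in the 3′ UTR than the list as a whole. Of the 65 sites, 42 lay there, 64.6% (52.5 to 75.1%), against 44.8% of the 18555 exonic sites of coding transcripts. The CDS held 19, or 29.2% (19.6 to 41.2%), against 53.0%, and the 5′ UTR of Jun 4, or 6.15% (2.42 to 14.8%), against 2.27%. In all 3 regions the value of the list was outside the interval of the members, for the 5′ UTR by a small margin and with 4 sites of 1 gene. Sites of 1 gene are not independent, and the genes were chosen with earlier results known, so this is no test. Within 200 nt of the stop codon lay 27 sites, 41.5% (30.4 to 53.7%), against 32.4%, which was inside the interval. The motifs of the 7 genes with a site were also spread differently over the regions. Their 3′ UTRs held 223 DRACH A and their CDS 100, where coding transcripts with a site had 153734 and 201614. Of the 223, 16.6% were listed, and of the 100, 18.0%. How far the placing of motifs accounts for the shares of sites by region was not tested.

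**Figure D3:**
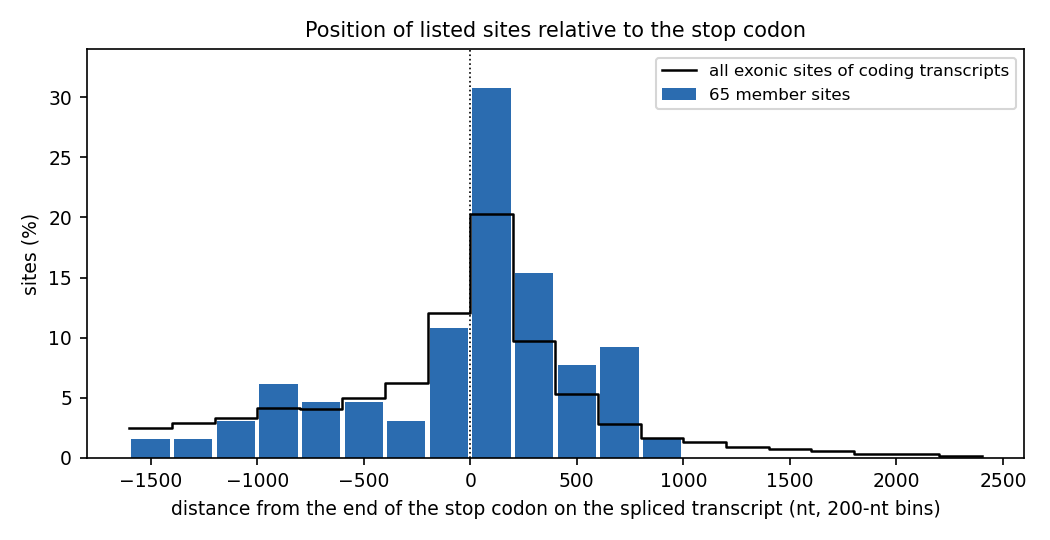
Share of sites (%, y axis) in bins of 200 nt by distance from the stop codon's end along the mRNA (nt, x axis); bars are the 65 sites of the immediate early genes and the line all exonic sites of coding transcripts. The first 200 nt after the stop codon hold 30.8% of the bars and 20.3% of the line, and no bar lies beyond 1000 nt.

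How far the sites reached into the 3′ UTR differed between the genes. The farthest site lay 298 nt past it in Jun, 263 nt in Fos, 309 nt in Junb, 528 nt in Ier2, 638 nt in Ier5, 706 nt in Fosl2 and 836 nt in Atf3. This was from 15.2% of the 3′ UTR in Fosl2 to 70.5% in Atf3. ATTTA, the core of the AU-rich elements through which many immediate early mRNAs are degraded, was searched on the transcript strand. None of the 65 sites had an ATTTA within 50 nt (interval 0 to 5.58%), against 3.13% of all exonic sites, and none of the 42 in the 3′ UTR did (0 to 8.38%), against 4.77%. Both values of the list were inside these intervals. In Jun, Fos, Fosl2 and Ier5 the first ATTTA lay 701, 653, 1034 and 1641 nt past the stop codon, and every 3′ UTR site of these genes came before it. Atf3, with a first ATTTA at 224 nt, had 3 sites before and 4 after it, and the site of Junb came after its first ATTTA at 252 nt. Ier2 had no ATTTA in its 3′ UTR. Of 13020 3′ UTRs of at least 500 nt, 49.9% held an ATTTA in their first 500 nt.

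As in the list as a whole, most sites had a close neighbour. Another site was listed within 100 nt for 46 of 65, 70.8% (58.8 to 80.4%), against 60.1% in coding genes, which was inside the interval. The median gap was 66.5 nt against 101 nt. In the genes with introns no site came closer to an exon junction than 102 nt in Fos, 183 nt in Atf3 and 223 nt in Fosl2.

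Jun, Junb, Jund, Ier2 and Ier5 have no intron in the chosen transcript. In the annotation, 6.5% of intronless coding genes (101 of 1555) had a listed site, and of these members 4 of 5 did. These 4 held 45 of the 65 sites. The members were chosen by name with earlier results known, and the list holds no expression, so these shares are a description only. Among the 101 intronless genes with a site, Jun ranked 4 by the number of sites, Ier5 5, Ier2 17 and Junb 35. The intronless genes outside the members with most sites were Hps6 with 19, Fem1a with 17 and Riox1 with 17. All sites of Hps6, 16 of 17 in Riox1 and 8 of 17 in Fem1a were in the CDS, where the 4 members had 13 of their 45 sites, 28.9% (17.7 to 43.4%), against 60.9% over intronless genes.

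**Figure D4:**
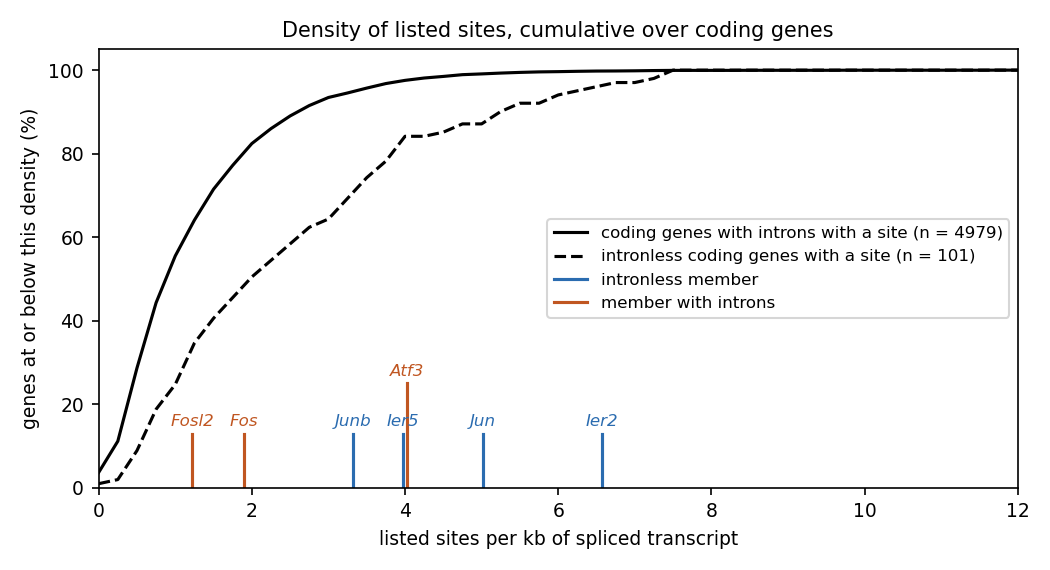
Cumulative share of coding genes with a site (%, y axis) by the number of listed exonic sites per kb of spliced transcript (x axis), for 4979 genes with introns (solid) and 101 without (dashed); coloured ticks mark the 7 members at their own density, and tick height has no meaning. The medians are 0.869 and 1.98 sites per kb, and all members but Fos and Fosl2 lie above 3.

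A higher density can come from more motifs or from more of them being listed. In the 7 genes, 59 of 384 exonic DRACH A were listed, 15.4% (12.1 to 19.3%), against 4.63% over coding transcripts with a site. With transcripts that pass the study's support filter, which leaves 20 of the 65 sites in exons, the members' share was 9.05%. These 20 sites are those of Fos, Fosl2 and Atf3. At a minimum score of 0.7 the members' share was 10.2%, and at 0.9 it was 2.60%. The background was not recomputed at these settings, so these values have no counterpart to the 4.63%. For the intronless members the share was 41 of 190, 21.6% (16.3 to 28%), against 9.92% over intronless transcripts with a site. For Fos, Fosl2 and Atf3 it was 18 of 194, 9.28% (5.95 to 14.2%), against 4.55% over transcripts with introns. For the 7 genes, the intronless ones and those with introns, the share of the background was below the interval of the members. As for the regions above, this describes the list and is no test. All 3 comparisons are limited to genes that have a site, and the list does not show how far expression moves with the share, which was not tested.

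**Figure D5:**
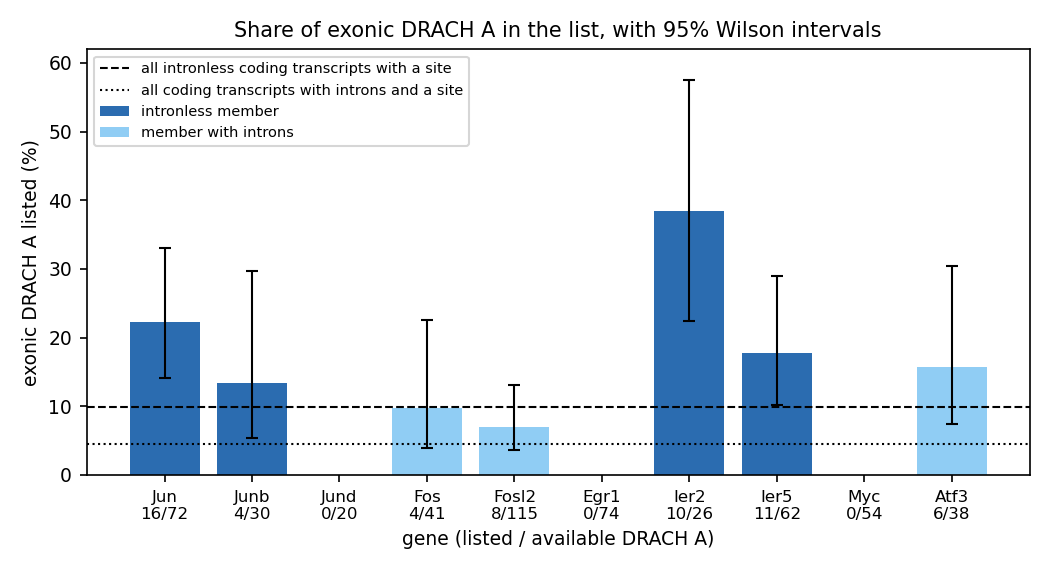
Share of exonic DRACH A that were listed as m6A sites (%, y axis) in each of the 10 genes (x axis, with listed and available numbers), with 95% Wilson intervals that cover counting error only; dark bars are intronless genes and light bars genes with introns. Ier2 (38.5%), Jun (22.2%) and Ier5 (17.7%) have intervals wholly above the 9.92% of intronless transcripts with a site (dashed line), and the 3 genes without a bar have no listed site.

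Pooled over the 7 genes, the listed share was highest near the stop codon. Within 200 nt of it, 24 of 57 DRACH A of the 7 genes were listed, 42.1% (30.2 to 55.0%), against 12.7% over coding transcripts with a site. Junb was an exception, with 1 of 6 listed there and 4 of 17 in its CDS. In the CDS of the 7 genes as a whole 18.0% were listed (11.7 to 26.7%), in the 3′ UTR 16.6% (12.3 to 22.0%) and in the 5′ UTR 6.56% (2.58 to 15.7%). The corresponding values of the background were 4.56, 4.99 and 2.34%.

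DRACH motifs held 59 of the 65 sites, 90.8% (81.3 to 95.7%), against 91.9% of the list. Since m6Aboost reads the 21 nt around the A, this share depends in part on the model. GGACT came first with 17 sites, followed by GAACT with 10 and GGACC with 7. GGACT was listed at 17 of its 34 copies in the 7 genes, 50% (34.1 to 65.9%), and GAACT at 10 of 25, 40% (23.4 to 59.3%). The same pentamers were listed at 17.0 and 11.6% of their copies over coding transcripts with a site. Of the DRACH motifs that end in T, 38 of 135 were listed (28.1%), and of those that end in A or C, 21 of 249 (8.43%). Motifs ending in T were also listed more often over coding transcripts with a site, at 9.22 against 2.48%. Among the members with a site, Fosl2 alone went the other way, with 2 of 41 listed against 6 of 74.

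Which copies of GGACT were listed differed between genes. Ier2 had 5 of 5 listed, Ier5 4 of 5, Jun 3 of 7, Fos 2 of 4, Atf3 1 of 2, Junb 1 of 3 and Fosl2 1 of 8. The 4 copies of Jun that were not listed all lay in the 5′ UTR, upstream of its first site. In Fosl2, 5 of the 7 that were not listed lay between 1883 and 3858 nt past the stop codon, where the gene had no site at all. Ier5 differed from Ier2 in GAACT, with 0 of 5 listed against 3 of 3.

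The 6 sites outside DRACH were in Junb (2), Ier5 (2) and Atf3 (2). They scored from 0.530 to 0.673, below the median of the list. The pentamers were GTACT at 0.673 and 0.586 in Junb, GGAGC at 0.567 and GGACG at 0.667 in Ier5, and TTACT at 0.530 and TGAAC at 0.608 in Atf3. In 4 of the 6 the A was followed by C. The exceptions were GGAGC in Ier5 and TGAAC in Atf3, and the latter lay next to a site at DRACH.

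Because Jun, Junb and Jund descend from a common gene, as do Fos and Fosl2, their proteins were aligned to see whether CDS sites lay at matching codons. Over aligned residues, the identity was 54.4% for Jun and Junb, 62% for Jun and Jund, 51.9% for Junb and Jund and 57.0% for Fos and Fosl2. Of the 21 comparisons of a CDS site with a paralogue, 19 had an aligned codon. In none of the 19 was the aligned position a DRACH A in the paralogue. With no motif there, none of these positions was listed either, and 7 of the 19 comparisons were with Jund, which has no site, so that shared listing could hardly be assessed. Over all DRACH A of these CDS with an aligned codon, listed ones included, some were shared, with 5 of 17 from Jun to Junb, 3 of 16 from Jun to Jund, 2 of 16 from Junb to Jund and 5 of 16 from Fos to Fosl2. The closest pair of sites was the one in codon 341 of Junb, whose aligned place in Jun was 15 nt from the listed site 3 nt past the Jun stop codon.

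The other genes of the pathway were counted by the same rule, from lists drawn up with earlier results of these data known. Of 17 AP-1 and ATF partners, 8 had a site, namely Mafk (10), Jdp2 (8), Nfe2l2 (7), Atf6 (6), Mafg (6), Atf4 (4), Atf1 (1) and Atf5 (1). Mafk had 9 of its 10 sites in the 3′ UTR. Fosb and Fosl1, the remaining Fos family genes, had none. Of the Egr family and its corepressors, Egr2, Egr3 and Egr4 had none, like Egr1, while the corepressors Nab2 and Nab1 had 6 and 4. Of 11 genes of the Myc network, 6 had a site, namely Mlxip (8), the Myc partner Max (6), Mycn (5, all in the CDS), Mga (3), Mxi1 (1) and Mnt (1). Mycl had none. Among 13 upstream activators, 8 had a site, with most in the kinase gene Mapk14 (8), then Mrtfa (6), Elk3 (5) and the serum response factor gene Srf (3). Among 26 other immediate early genes 15 had a site, with most in Mcl1 (11), Zfp36l2 (11), Klf4 (8) and Zfp36 (7). In all, 39 of 72 genes had a site, 54.2%, against the 23.1% of coding genes given above, with 177 sites.

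For the cell type, 6 of 9 macrophage genes had a site and 0 of 8 genes of other cell types did. No site was listed in Adgre1, Cd68 or Itgam, which are also markers of these cells. A listed site depends on expression, motif and methylation together, so these counts describe the list only.

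The transcript annotation bears on these values. Jun, Jund, Ier2 and Ier5 have no transcript in GENCODE M21 that passes the support filter described in the study's methods, and 39 of the 65 sites (60.0%) lay in such genes. The intronless transcript chosen for Junb does not pass either, although another of the gene does, so that 45 of the 65 sites were placed on transcripts outside the filter. The model takes the transcript region and the signal relative to the other peaks of the transcript as inputs. What it was given for these genes is not stated in the sources used here, and the effect on their scores was not tested.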

How the data were processed

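Poly(A)+ RNA of untreated RAW264.7 cells was profiled by miCLIP2 in 3 replicates. Per the labels and the study's methods, the authors mapped reads to GRCm38.p6 with STAR 2.7.3a, removed duplicates with UMI-tools 1.0.0 and used SAMtools 1.9 and bedtools 2.27.1 (versions from the submitters' processing notes). Peaks were called by PureCLIP per replicate and kept when found in at least 2 replicates. The deposited value of each site is the m6Aboost score of the authors, listed from 0.500 upward. The list holds no read counts and no value per replicate, so the reads behind a single site, and its precision, are not known from it.

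Sites were read as 0-based starts and placed by Python 3.11.15 with pysam 0.24.0 on GRCm38 and GENCODE M21, whereas the authors used a later release of the same build. The transcript with the longest CDS was taken. Intervals are 95% Wilson intervals (SciPy 1.17.1), and proteins were aligned globally with Biopython 1.88 (gap open 11, extend 1). All members were named, with every AP-1, Egr or Myc family gene that had a site, up to 4 genes of each other group by number of sites (ties by top score) and the 3 intronless genes with most sites. List genes without a site, and sites of members with over 5 outside the top and densest ones, were named after their values were seen. The members and lists were chosen with earlier results of these data known. Of the listed genes, 1 is not reported here. The placing was checked on simulated sites. Alternatives were the minimum score, neighbouring calls, coordinate reading, overlapping genes, motif, transcript and window sizes.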

Additional observations from a re-analysis of the deposited data

How the results depend on the processing

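No paired analysis was possible because 1 condition was profiled and the list of predicted sites merges its replicates. Nor could a replicate be left out. Of 50 alternatives, 31 left the values of the members or the count of other pathway genes within their interval or within 1.5 times the count. The other 19 moved a value beyond this. These values have no direction that could reverse, and the background was not recomputed under the alternatives. A minimum score of 0.7 left 39 sites, 100% of them at DRACH, 56.4% with another site within 100 nt and 10.2% of DRACH A listed. A minimum of 0.9 left 10 sites in 4 genes, with 100% at DRACH, 90% in the 3′ UTR, 10.0% in the CDS, 40% with another site within 100 nt, 2.60% of DRACH A listed and 12 of the other pathway genes with a site. Taking the longest transcript by span that passes the support filter left 20 of the 65 sites in exons, since Jun, Ier2 and Ier5 then have no transcript and Junb another one that leaves its 6 sites outside its exons, and 9.05% of DRACH A listed. Windows of 50 and 200 nt put another site near 44.6 and 84.6% of sites, and windows of 100 and 400 nt around the stop codon held 26.2 and 60.0%. Counting any AC gave 96.9% in place of 90.8% at DRACH, and starts read as 1-based gave 1.54%. Leaving out Jun, chosen after seeing the data, kept all 6 shares inside their intervals, with 67.3% in the 3′ UTR and 13.8% of DRACH A listed. The 5′ UTR share was not among these, and all of its sites lay in Jun. The list does not give the read coverage of single positions or transcripts, so a DRACH A that is not listed may lack reads.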
